A study of Mus musculus with 2 samples.

Results

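The Cyp4 genes examined here are 10 cytochrome P450 genes of the mouse liver that encode fatty acid omega-hydroxylases or their near relatives: *Cyp4a10*, *Cyp4a12a*, *Cyp4a12b*, *Cyp4a14*, *Cyp4a31*, *Cyp4a32*, *Cyp4b1*, *Cyp4f13*, *Cyp4f14* and *Cyp4v3*. They were taken by symbol from the 53342 gene rows of 2 liver mRNA libraries, 1 from control and 1 from iFIRKO mice. iFIRKO mice (Adipoq-CreERT2; Insr flox/flox) lose the insulin receptor in adipocytes after tamoxifen, because the Adipoq promoter drives the inducible Cre there, whereas the liver is expected to keep the gene. The control library carried the genotype WT in its label, and the methods of the study name IR flox/flox mice as controls. Both groups were males aged 7 weeks at the first injection, received tamoxifen at 100 mg/kg on 5 consecutive days and were analysed 3 days after the last dose, so the drug was common to both. The background strain of these animals and whether a library came from 1 liver or from several were not given in the sources used here. The comparison asks how the liver transcriptome differs after acute loss of mature adipocytes. The genes were chosen with the results of this contrast known, so their values are a description, and with 1 library per group no difference has a replicate check or a p-value.

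Omega-hydroxylases add oxygen to the far end of a fatty acid chain, working with electrons supplied through cytochrome P450 reductase. The product is oxidized further to a dicarboxylic acid, which peroxisomes shorten. In the mouse liver, *Cyp4a10* and *Cyp4a14* are classical targets of the fatty acid sensor PPAR-alpha, *Cyp4a12a* is the male-predominant enzyme that hydroxylates arachidonic acid under growth hormone and androgen control, and *Cyp4f14* acts on leukotrienes and vitamin E.

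Several of these genes are recent copies of each other, which bears on how reads could be assigned. The first set of sequences shows the 60 coding bases around the heme-binding cysteine of each enzyme, read 5′ to 3′ on the coding strand from GENCODE M21 transcripts on GRCm38, with capitals at each base that differs from *Cyp4a10*. Each stretch crosses an exon junction, so its coordinates span an intron. The sequence of *Cyp4a10* was also that of *Cyp4a31* (chr4:115574935-115577963) and *Cyp4a32* (chr4:115614865-115621461), and that of *Cyp4a12a* was also that of *Cyp4a12b* (chr4:115435225-115438084).
*Cyp4a10* (chr4:115529487-115532558, plus strand): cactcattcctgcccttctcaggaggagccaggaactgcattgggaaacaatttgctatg
*Cyp4a12a* (chr4:115328971-115331861, plus strand): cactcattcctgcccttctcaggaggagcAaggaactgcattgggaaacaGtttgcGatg
*Cyp4a14* (chr4:115487284-115489820, minus strand): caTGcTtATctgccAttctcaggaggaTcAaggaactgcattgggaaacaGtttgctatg
*Cyp4b1* (chr4:115625201-115625677, minus strand): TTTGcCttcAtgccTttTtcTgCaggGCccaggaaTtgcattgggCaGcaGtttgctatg
*Cyp4f13* (chr17:32924927-32925355, minus strand): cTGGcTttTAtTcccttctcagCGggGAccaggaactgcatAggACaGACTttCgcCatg
*Cyp4f14* (chr17:32905651-32906080, minus strand): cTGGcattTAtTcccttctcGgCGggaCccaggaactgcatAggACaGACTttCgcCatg
*Cyp4v3* (chr8:45307092-45308422, minus strand): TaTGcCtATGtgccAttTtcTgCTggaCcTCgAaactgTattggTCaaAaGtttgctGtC

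Against *Cyp4a10*, this stretch differed at 3 bases in *Cyp4a12a*, 9 in *Cyp4a14*, 16 in *Cyp4b1*, 19 in *Cyp4f14*, 20 in *Cyp4f13* and 23 in *Cyp4v3*. Over the whole coding sequence, *Cyp4a12a* and *Cyp4a12b* were 98.5% identical, with 23 substitutions in 1524 bases. *Cyp4a10* was 96.6% identical to *Cyp4a31* and 97.2% identical to *Cyp4a32*, but only 75.9% identical to *Cyp4a14*. *Cyp4f13* and *Cyp4f14* were 78.5% identical, and *Cyp4v3* shared 52.4% of aligned bases with *Cyp4a10*.

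The second set shows 60 coding bases for each of the 2 groups of near-identical copies, with capitals at each base that differs from the first sequence of its group. The stretch is the one with the most differences from that first sequence, summed over the other copies of the group. The pair covers coding bases 624 to 683 and crosses an exon junction, and the trio covers coding bases 214 to 273. All 5 lie on the plus strand.
*Cyp4a12a* (chr4:115326309-115326681): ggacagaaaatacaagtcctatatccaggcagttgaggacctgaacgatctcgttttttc
*Cyp4a12b* (chr4:115432561-115432934): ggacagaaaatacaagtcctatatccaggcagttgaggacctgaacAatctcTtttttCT
*Cyp4a10* (chr4:115519654-115519713): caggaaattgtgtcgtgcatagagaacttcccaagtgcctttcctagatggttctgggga
*Cyp4a31* (chr4:115565034-115565093): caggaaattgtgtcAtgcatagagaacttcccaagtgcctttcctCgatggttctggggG
*Cyp4a32* (chr4:115602284-115602343): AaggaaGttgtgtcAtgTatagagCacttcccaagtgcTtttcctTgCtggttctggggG

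In these stretches, *Cyp4a12b* differed from *Cyp4a12a* at 4 bases, *Cyp4a31* from *Cyp4a10* at 3 and *Cyp4a32* from *Cyp4a10* at 9. As the stretch of the trio was chosen on the summed differences, *Cyp4a31* may differ more elsewhere. Of all 100-base windows along the transcript, 35.8% of those of *Cyp4a12a* occurred unchanged in another gene, in every case *Cyp4a12b*. The share was 20.1% for *Cyp4a32*, 12.7% for *Cyp4a10* and 8.22% for *Cyp4a31*. It was 0% for *Cyp4a14*, *Cyp4f13* and *Cyp4f14*. With 50-base windows the shares were 48.9% for *Cyp4a12a*, 46.8% for *Cyp4a32*, 30.5% for *Cyp4a10* and 21.8% for *Cyp4a31*. They were 0.245% for *Cyp4a14*, 2.7% for *Cyp4f13* and 2.72% for *Cyp4f14*. *Cyp4b1* shared 4.46% of its 100-base and 10.3% of its 50-base windows, and *Cyp4v3* shared 5.77% and 7.02%. The read length and the treatment of reads that match several genes were not given in the sources used here, so the separate values of *Cyp4a12a* and *Cyp4a12b*, and of *Cyp4a10*, *Cyp4a31* and *Cyp4a32*, are uncertain and are also given as sums.

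Values below are normalized reads, returned from the deposited log2 scale, and a CPM of 1, the usual depth-scaled count, equals 41.8 of them. The libraries held an estimated 42276584 reads (control) and 41304952 reads (iFIRKO), and the zero share of rows was 62.2% and 62.1%. Fold changes are iFIRKO over control after adding 4.18 reads to each value, called higher or lower past 1.5-fold as in the methods of the study. The brackets are exact 95% intervals on estimated read pairs. They leave out the added reads, so for genes with few reads the fold is not centred on the same ratio as its bracket. These intervals cover counting error only, not differences between mice. *Insr*, the deleted gene, had 4246 reads in the control and 3692 in the iFIRKO liver (log2 fold change -0.20 [-0.29, -0.11]), in a tissue in which the Cre driver is not known to act.

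All 10 Cyp4 genes reached a CPM of 1 in 1 or both libraries, the minimum for a gene to count as measured. Of these, 3 were more than 1.5-fold higher in iFIRKO liver (*Cyp4a12a*, *Cyp4a12b* and *Cyp4a14*), 0 were lower and 7 stayed within 1.5-fold. Among all 13400 genes at that level, 4.46% were higher and 7.28% were lower. Because the genes were chosen from this contrast, nothing is read from that comparison. The median log2 fold change was 0.20 over the 10 genes and 0.008 over all genes. Counting intervals lay above 0 for 6 genes, below 0 for 3 and on both sides of 0 for *Cyp4a32*. Together the 10 genes held 0.228% of all reads in the control and 0.321% in the iFIRKO library.

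**Figure D1:**
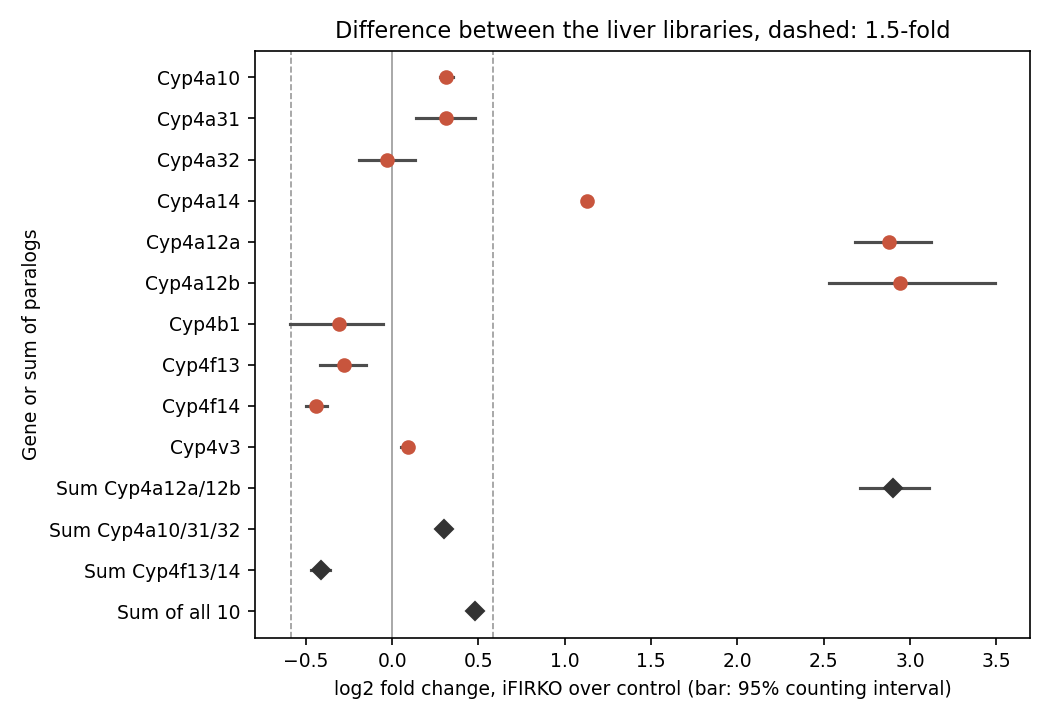
Log2 fold change (iFIRKO over control) of each Cyp4 gene and of the 3 paralog sums, with bars for exact 95% counting intervals and dashed lines at 1.5-fold. *Cyp4a12a* (2.88), *Cyp4a12b* (2.94) and *Cyp4a14* (1.13) lie to the right of the upper line, and the other 7 genes lie between the lines.

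The largest differences belonged to *Cyp4a12a* and *Cyp4a12b*. *Cyp4a12a* (ENSMUSG00000066071.6, chr4:115299046-115332815, plus strand) had 386 reads in the control and 2862 in the iFIRKO liver. *Cyp4a12b* (ENSMUSG00000078597.2, chr4:115411624-115439034, plus strand), its near-identical copy, had 85.0 and 679.5 reads. Both were low in the control and much higher in the iFIRKO library, by 7.35-fold (log2 2.88 [2.68, 3.12]) and 7.67-fold (log2 2.94 [2.53, 3.49]), ranks 7 and 5 of 13400 from the highest. Summed over the pair, reads were 471 and 3542, a 7.46-fold difference (log2 2.90 [2.71, 3.11]) that does not depend on how reads were divided between the copies. *Cyp4a12a* took 81.9% of the pair's read pairs in the control ([76.3, 86.5]) and 80.8% in the iFIRKO liver ([78.9, 82.6]), so the split between the copies differed by less than its counting error. The control value of *Cyp4a12b* rests on an estimated 43 read pairs, which sets the width of its interval.

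*Cyp4a14* (ENSMUSG00000028715.2, chr4:115486200-115496142, minus strand), an omega-hydroxylase of medium- and long-chain fatty acids, had 24429 reads in the control and 53514 in the iFIRKO liver. The difference was 2.19-fold (log2 1.13 [1.10, 1.16]), rank 144 of 13400. Most of the difference in the 10-gene sum lay in this gene, as the sum was 95820 reads in the control and 133508 in the iFIRKO library (log2 0.48 [0.46, 0.50], 1.39-fold). Its transcript shared no 100-base window with another gene.

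*Cyp4a10* and its copies differed far less. *Cyp4a10* (ENSMUSG00000066072.13, chr4:115518264-115533649, plus strand), the other classical PPAR-alpha target of the family, had 28948 reads in the control and 35983 in the iFIRKO liver, 1.24-fold (log2 0.31 [0.28, 0.35]). *Cyp4a31* (ENSMUSG00000028712.12, chr4:115563649-115579015, plus strand) had 1056 and 1310 reads, also 1.24-fold (log2 0.31 [0.14, 0.48]). *Cyp4a32* (ENSMUSG00000063929.6, chr4:115600969-115621602, plus strand) had 1269 and 1244 reads (log2 -0.03 [-0.19, 0.13]). None passed 1.5-fold, and *Cyp4a32* could not be told from no difference at this depth. The sum of the trio was 31273 reads in the control and 38536 in the iFIRKO liver (log2 0.30 [0.27, 0.33]). *Cyp4a31* took 3.52% of the pairs of *Cyp4a31* and *Cyp4a10* in the control ([3.23, 3.83]) and 3.51% in the iFIRKO liver ([3.25, 3.79]), whereas the share of *Cyp4a32* beside *Cyp4a10* was 4.2% ([3.89, 4.53]) and 3.34% ([3.09, 3.61]).

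The order of the 2 abundant PPAR-alpha targets was reversed between the libraries. *Cyp4a14* made up 45.8% of the read pairs of *Cyp4a14* and *Cyp4a10* in the control ([45.2, 46.4]) and 59.8% in the iFIRKO liver ([59.3, 60.2]), a ratio of 0.844 in the control and 1.49 in the iFIRKO library. The intervals do not overlap, but they hold no spread between animals.

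*Cyp4b1* (ENSMUSG00000028713.17, chr4:115624725-115647723, minus strand), best known from lung, where it hydroxylates shorter fatty acids and activates furan protoxins, had 522 reads in the control and 419.7 in the iFIRKO liver (log2 -0.31 [-0.59, -0.05]). It stayed within 1.5-fold, with 1.24 times as many reads in the control. Of the 3 lung markers, *Sftpc* and *Sftpb* were at 0 in both libraries and the list summed to 3.97 and 5.41 reads. The 3 kidney markers, of an organ that also expresses Cyp4a genes, summed to 1.99 and 2.01 reads, with *Slc12a1* at 0 in both.

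*Cyp4f14* (ENSMUSG00000024292.15, chr17:32905070-32917342, minus strand) had 11075 reads in the control and 8173 in the iFIRKO liver, 1.35 times as many in the control (log2 -0.44 [-0.50, -0.38]). *Cyp4f13* (ENSMUSG00000024055.15, chr17:32924688-32947402, minus strand), its neighbour, had 2021 and 1661 reads (log2 -0.28 [-0.42, -0.15]). Neither reached 1.5-fold, and both intervals lay below 0. Their sum was 13096 reads in the control and 9833 in the iFIRKO liver (log2 -0.41 [-0.47, -0.36]), with *Cyp4f13* at 15.4% ([14.6, 16.3]) and 16.9% ([15.9, 18.0]) of the pairs.

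*Cyp4v3* (ENSMUSG00000079057.4, chr8:45304944-45333216, minus strand), the counterpart of the human gene mutated in Bietti crystalline dystrophy, had 26029 reads in the control and 27664 in the iFIRKO liver. At 1.06-fold (log2 0.09 [0.05, 0.12]) it was close to level, and the interval is narrow because the values rest on an estimated 13099 and 13741 read pairs.

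**Figure D2:**
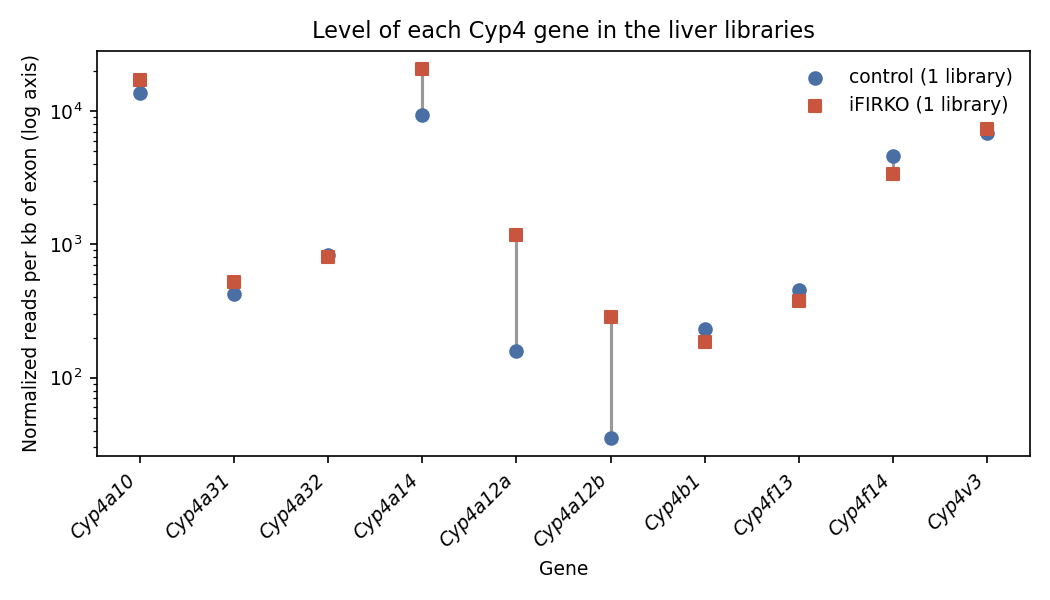
Normalized reads per kilobase of exon of each Cyp4 gene in the control and the iFIRKO liver library, on a log axis, 1 point per library. *Cyp4a12a* lies at 159 in the control and 1182 in the iFIRKO liver, while *Cyp4v3* lies at 6835 and 7265.

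Levels of different genes were compared per kilobase of annotated exon. In the control, *Cyp4a10* was highest at 13726 reads per kilobase, then *Cyp4a14* at 9392, *Cyp4v3* at 6835 and *Cyp4f14* at 4578. In the iFIRKO liver *Cyp4a14* was highest at 20574, then *Cyp4a10* at 17062, *Cyp4v3* at 7265 and *Cyp4f14* at 3378. The same 4 genes led both libraries, with the first 2 exchanged. *Cyp4a12a* moved from place 9 of 10 (159 reads per kilobase) to place 5 (1182), and *Cyp4a12b* from place 10 (35.5) to place 9 (284). The remaining genes were *Cyp4a32* at 826 and 809.6, *Cyp4f13* at 455 and 374, *Cyp4a31* at 421 and 522, and *Cyp4b1* at 232 and 186, control first. Neighbours in this order differed beyond counting error except *Cyp4f13* and *Cyp4a31* in the control, whose ratio was 1.08 ([0.972, 1.20]). The place of *Cyp4f13* depends on the length used, because with its longest transcript it lay at 1154 and 948 reads per kilobase, above *Cyp4a32*. The place of *Cyp4a32* is uncertain too. Its annotated transcript has 1530 bases, 1527 of them coding, whereas those of *Cyp4a10* and *Cyp4a31* have 2109 and 2509 bases. Whether reads from untranslated ends of *Cyp4a32* were counted is not known, so its level per kilobase may not be comparable with theirs.

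**Figure D3:**
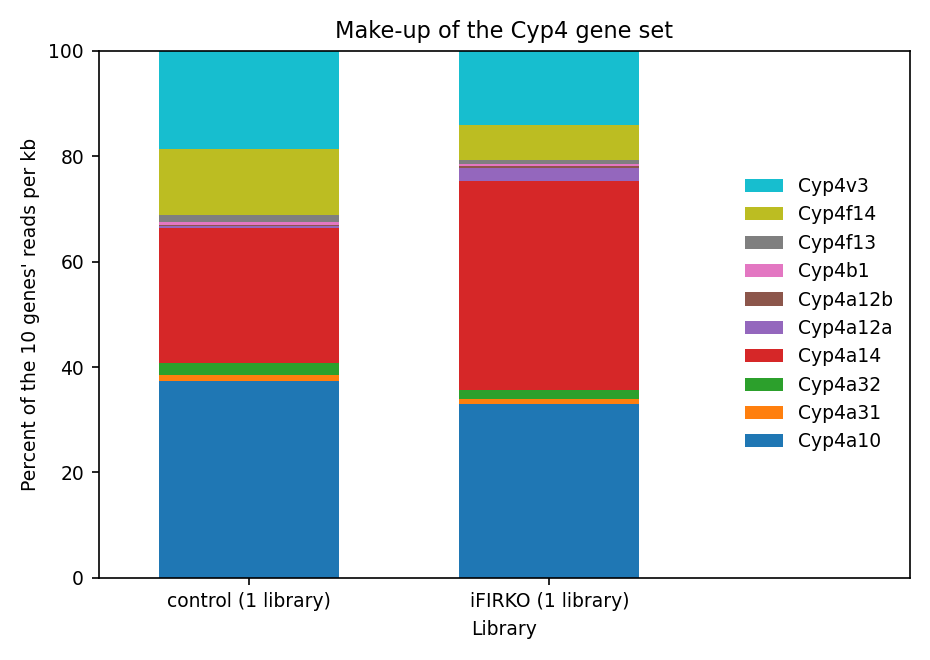
Share of each Cyp4 gene in the summed reads per kilobase of the 10 genes, in percent, as 1 stacked bar per library. *Cyp4a14* takes 25.6% of the control bar and 39.8% of the iFIRKO bar, and *Cyp4f14* takes 12.5% and 6.54%.

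The make-up of the Cyp4 transcript pool therefore differed between the libraries. As a share of the 10 genes' reads per kilobase, *Cyp4a14* was 25.6% in the control and 39.8% in the iFIRKO liver, and *Cyp4a12a* was 0.435% and 2.29%. The shares of *Cyp4a10* (37.4% and 33.0%), *Cyp4v3* (18.6% and 14.1%) and *Cyp4f14* (12.5% and 6.54%) were smaller in the iFIRKO library. For *Cyp4a10* and *Cyp4v3* the smaller share stood beside a read count that was higher, since the total was larger. Despite its 7.35-fold difference, *Cyp4a12a* remained a small part of the pool.

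The files held 17 further rows of the Cyp4 family, of which 9 were at 0 in both libraries and 4 reached a CPM of 1. None of these 4 was more than 1.5-fold higher and 1 was lower, with a median of -0.33. *Cyp4f15* had 4432 reads in the control and 4030 in the iFIRKO liver (log2 -0.14 [-0.22, -0.05]), and *Cyp4f17* had 508 and 537 (log2 0.08 [-0.17, 0.34]). *Cyp4f16* had 216 and 127 reads (log2 -0.75 [-1.23, -0.30]), the 1 of these 4 past 1.5-fold. Below the minimum, *Cyp4f39* had 2.73 reads in the control and 21.3 in the iFIRKO liver, and *Cyp4f37* had 7.95 and 1.007, values too low for a fold. *Cyp4f18*, the leukotriene B4 hydroxylase of neutrophils, had 49.1 and 32.7 reads (log2 -0.53 [-1.63, 0.34]), a difference within its counting error. Markers of neutrophils were lower beside it, as 2 of 2 measured genes passed 1.5-fold and the 4-gene sum was 384 reads in the control and 110.4 in the iFIRKO liver. The part of those cells in the value of *Cyp4f18* was not tested. In bulk tissue, fewer cells of a type and less RNA per cell cannot be told apart.

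**Figure D4:**
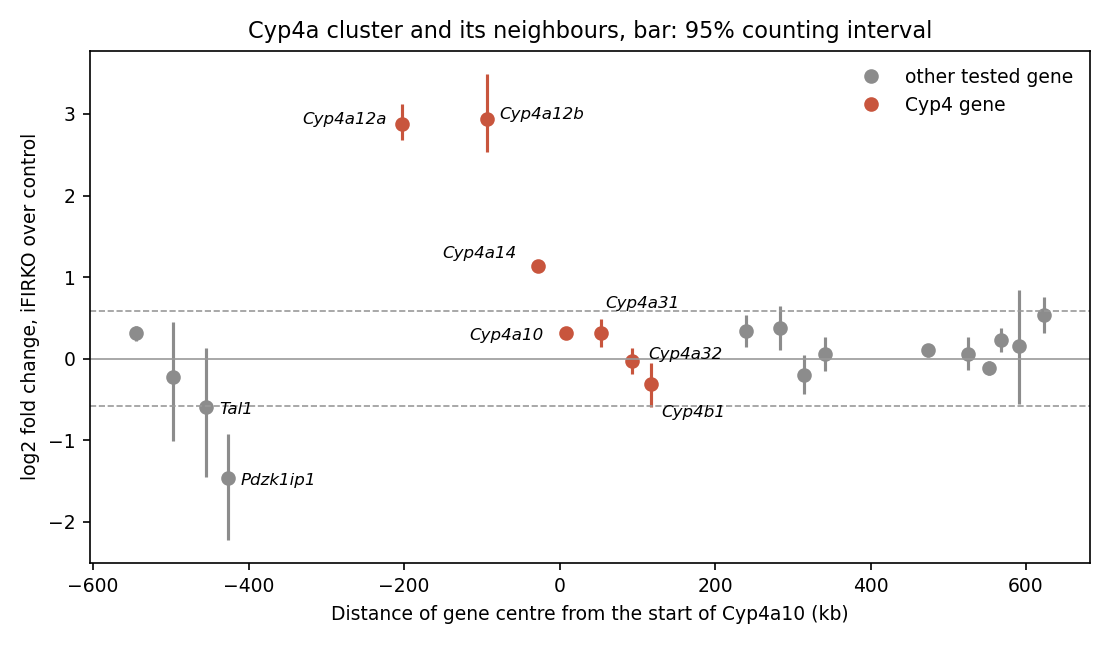
Log2 fold change (iFIRKO over control) of the 21 measured genes in the Cyp4a cluster and the 500 kb on either side, against the distance in kilobases of each gene's centre from the start of *Cyp4a10*. Bars are exact 95% counting intervals and dashed lines mark 1.5-fold. The 3 points above the upper line are *Cyp4a12a*, *Cyp4a12b* and *Cyp4a14*, and none of the 14 grey neighbours exceeds 0.53.

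Of the 10 genes, 7 lie in 1 cluster of Cyp4 genes on chromosome 4 that spans 509 kb (chr4:115138568-115647723). *Cyp4a12a*, *Cyp4a12b* and *Cyp4a14*, the genes past 1.5-fold, come first in order of position among the measured members, followed by *Cyp4a10*, *Cyp4a31*, *Cyp4a32* and *Cyp4b1*. The 14 other measured genes all lie outside the cluster, in the 500 kb on either side, as no other gene inside it was measured. Of the 14, 0 were higher, 2 were lower and 12 stayed within 1.5-fold, with a median of 0.08. The highest of the 14 was *Pomgnt1*, with 579 reads in the control and 836 in the iFIRKO liver (log2 0.53). The lower ones were *Pdzk1ip1*, with 164 and 56.4 reads (log2 -1.47 [-2.22, -0.92]), and *Tal1*, with 75.2 and 48.3 (log2 -0.60 [-1.45, 0.13]). The latter interval reaches past 0. *Faah*, which breaks down fatty acid amides, had 6178 and 6601 reads (log2 0.10).

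RefSeq promoter windows, from 250 bases before to 50 bases after a start, were matched for 5 of the 10 genes (*Cyp4a32*, *Cyp4b1*, *Cyp4f13*, *Cyp4f14* and *Cyp4v3*), in 8 windows. Of the 8, 4 are overlapping windows of *Cyp4f14*. *Cyp4a10*, *Cyp4a12a*, *Cyp4a12b*, *Cyp4a14* and *Cyp4a31* had no window, so nothing is known here of their promoters. The pattern TTCNNNGAA, the core bound by STAT5-type factors, was found in 2 of the 8 windows, those of *Cyp4b1* and *Cyp4f13*, and in 8.30% of all promoter windows on either strand. The nuclear receptor motif AGGTCA (16.3% of all windows) and the DR1 element (0.381%), a repeat of such motifs that may overlap it, were in none of the 8. The match says only which letters stand in these windows.

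Genes of the same pathway were followed in lists, which were also chosen with earlier results of these data known. Beside them, the median of all measured genes was 0.008, with 4.46% of those genes higher and 7.28% lower. Of the 12 enzymes and electron donors that work with omega-hydroxylases, 2 were higher and 0 lower, with a median of 0.03. *Aldh3a2*, the fatty aldehyde dehydrogenase of omega-oxidation, had 12297 reads in the control and 21613 in the iFIRKO liver (log2 0.81 [0.77, 0.86]), and the retinal dehydrogenase *Aldh1a1* had 42037 and 65602 (log2 0.64 [0.62, 0.67]). *Por*, the reductase that passes electrons to every microsomal P450, had 13622 and 10068 (log2 -0.44 [-0.49, -0.38]), within 1.5-fold. The alcohol dehydrogenase *Adh1* (log2 0.02) and the mitochondrial aldehyde dehydrogenase *Aldh2* (log2 0.21) were within 1.5-fold too.

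Of 21 genes for peroxisomal oxidation, which takes up the dicarboxylic acid products, 4 were higher and 0 lower, with a median of 0.29. The 4 were *Pex11a*, a peroxisome division factor (2542 reads in the control and 4761 in the iFIRKO liver, log2 0.90), the thiolase *Acaa1b* (26127 and 46718, log2 0.84), the carrier and thiolase *Scp2* (56525 and 100088, log2 0.82) and the thioesterase *Acot3* (2163 and 3435, log2 0.67). The bifunctional enzyme *Ehhadh* had 92004 and 71019 reads (log2 -0.37 [-0.39, -0.35]), within 1.5-fold.

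Of 19 measured genes among PPAR-alpha, its partners and its other targets, 6 were higher and 0 lower, with a median of 0.44. They included the fatty acid transporter *Cd36* (2635 reads in the control and 4955 in the iFIRKO liver, log2 0.91), the thioesterases *Acot2* (592 and 1118, log2 0.91) and *Acot1* (2289 and 3838, log2 0.74), and the lipid droplet protein *Plin2* (13685 and 22423, log2 0.71). The fatty acid binding protein *Fabp1*, with 77132 and 109348 reads (log2 0.50), stayed within 1.5-fold, as did the receptor *Ppara* itself, with 1908 and 2066 (log2 0.11 [-0.01, 0.24]). *Cyp4a14* (1.13) thus lay above every named gene of this list, and *Cyp4a10* (0.31) lay below the list's median.

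**Figure D5:**
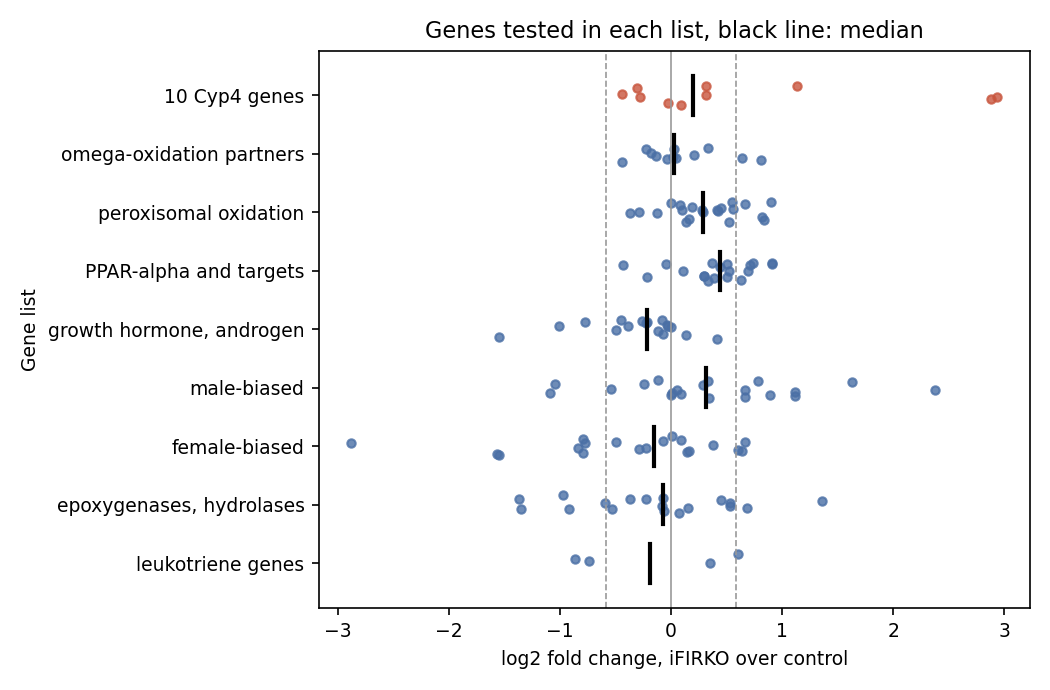
Log2 fold change (iFIRKO over control) of each measured gene in the 10 Cyp4 genes and the related lists, 1 point per gene, with a tick at each median and dashed lines at 1.5-fold. *Hao2* is not drawn because its control value was 1 read pair. The PPAR-alpha list has a median of 0.44 and the growth hormone and androgen list a median of -0.22.

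Of 17 genes for growth hormone and androgen signalling, the pathways that keep *Cyp4a12a* high in males, 0 were higher and 3 were lower, with a median of -0.22. The feedback inhibitor *Socs2*, a direct target of growth hormone, had 741 reads in the control and 250.5 in the iFIRKO liver (log2 -1.55 [-1.87, -1.27]). *Cish*, of the same family, had 1461 and 723 (log2 -1.01 [-1.20, -0.83]), and the female-biased repressor *Cux2* had 839 and 485 (log2 -0.78 [-1.02, -0.56]). The growth hormone receptor *Ghr* had 17557 and 17510 reads (log2 -0.00) and its hepatic product *Igf1* had 22703 and 21475 (log2 -0.08). The transducer *Stat5b* had 4956 and 3503 (log2 -0.50). All 3 stayed within 1.5-fold, as did the hepatocyte transcription factor *Hnf4a* with 29516 and 28673 (log2 -0.04).

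Other genes with a male bias did not all share the direction of *Cyp4a12a*. Of 20 measured, 8 were higher and 2 were lower, with a median of 0.31. The fatty acid elongase *Elovl3* had 305 reads in the control and 1606 in the iFIRKO liver (log2 2.38), the steroid enzyme *Hsd3b5* 13.5 and 50.6 (log2 1.63 [0.61, 3.31]) and the P450 *Cyp2d9* 13021 and 28386 (log2 1.12). The lower ones were *Selenbp2* (13470 and 6321, log2 -1.09) and the oxysterol hydroxylase *Cyp7b1* (7069 and 3409, log2 -1.05). The pheromone carriers *Mup3*, with 122970 and 195465 reads (log2 0.67), and *Mup20*, with 26748 and 49602 (log2 0.89), are close copies within a large family, and how reads were divided among them is unknown. *Mup7* (log2 0.67) and *Mup21* (log2 1.12) of the same family are also among the 8 higher genes, while *Mup1* (log2 0.33) stayed within 1.5-fold. The 8 are therefore not 8 separate observations. Summed over the whole list the reads were 688071 and 675457, a log2 difference of -0.03, opposite in sign to the median, as abundant members such as *Serpina1e* (400017 and 275765, log2 -0.54) were fewer in the iFIRKO library.

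Of 20 measured genes with a female bias, 4 were higher and 7 lower, with a median of -0.15. *A1bg* had 2551 reads in the control and 858 in the iFIRKO liver (log2 -1.57). The P450 genes *Cyp2b9* (9826 and 10810, log2 0.14), *Cyp2a4* (8427 and 9384, log2 0.16) and the steroid enzyme *Cyp17a1* (10405 and 8866, log2 -0.23) stayed within 1.5-fold. *Hao2*, a hydroxyacid oxidase, had 1.99 reads in the control, too few for a fold, and 42.3 in the iFIRKO liver. It is counted among the 4 higher genes, and without it 3 were higher. *Cux2*, *Acot3* and *Abcd2* each stand in a second list.

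Arachidonic acid is also used by epoxygenases of the Cyp2c and Cyp2j families. Of 18 genes from these families or for epoxide hydrolases, 2 were higher and 5 lower, with a median of -0.07. A place in this list does not establish that a gene makes epoxides. The epoxide hydrolase *Ephx1* had 9247 reads in the control and 23690 in the iFIRKO liver (log2 1.36), while *Cyp2c70* had 32682 and 12670 (log2 -1.37) and *Cyp2c69* had 14088 and 5510 (log2 -1.35). The epoxygenases *Cyp2c29* (58816 and 84913, log2 0.53) and *Cyp2c50* (38706 and 32912, log2 -0.23) stayed within 1.5-fold. The soluble hydrolase *Ephx2*, which opens arachidonic epoxides, had 21469 and 29266 (log2 0.45). Of 10 genes for leukotrienes, substrates of Cyp4f enzymes, only 4 were measured, of which 1 was higher and 2 lower, with a median of -0.19. *Ptgr1*, which inactivates leukotriene B4, had 281 and 428 reads (log2 0.60), *Lta4h*, the hydrolase that makes leukotriene B4, 1199 and 1531 (log2 0.35), *Alox5ap* 201 and 108 (log2 -0.87) and *Pla2g4a* 147 and 86.4 (log2 -0.74). Among markers of Kupffer cells and macrophages, which carry leukotriene enzymes, 5 of 8 were lower and the sum was 30092 and 19564 reads, and their part in these values was not tested.

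Above a CPM of 10, the 3 genes with the fold nearest to that of the *Cyp4a12a* and *Cyp4a12b* sum (7.46-fold) were *Mfsd2a*, a lysolipid transporter, with 585 reads in the control and 3076 in the iFIRKO liver (5.23-fold), *Elovl3* (5.21-fold) and *G0s2*, an inhibitor of lipolysis, with 510.4 and 2623 (5.10-fold). All 3 folds were smaller than that of the pair.

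The tissue carried the markers of liver in both libraries. Of 6 hepatocyte markers, 0 were higher and 1 was lower, and the list summed to 5014813 reads in the control and 4764931 in the iFIRKO liver. Pericentral markers summed to 204087 and 163375 reads (0 of 8 higher, 1 lower) and periportal markers to 464573 and 415143 (0 of 8 either way). Among other cells, 6 of 6 erythroid markers were higher (sum 13455 and 27006), 2 of 3 measured B cell markers were lower (sum 313 and 122), 2 of 6 endothelial markers were lower (sum 9174 and 6668), and 0 of 6 stellate and 0 of 5 cholangiocyte markers passed 1.5-fold in either direction. T and NK cell markers were below the minimum (sum 145 and 75.6). Of the adipocyte markers, *Lep* was at 0 in both libraries, *Adipoq* and *Plin1* were at 0 in the control and at 2.01 in the iFIRKO liver, *Fabp4* had 469.9 and 469 reads, and *Cidec*, also made by fatty hepatocytes, had 17.9 and 108. The part of these cells in the Cyp4 values was not tested.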

How the data were processed

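Liver poly(A) mRNA of 1 control and 1 iFIRKO library was analysed, grouped by the sample titles. The authors deposited log2 values of normalized reads for each gene symbol, and wrote 0 where the scaled count did not exceed 1. The build was mm10 per the submitters' processing notes, and the aligner, counter and treatment of multi-mapped reads are not given in the sources used here. Values were returned to the linear scale with Python 3.11.15. Estimated read pairs were the value divided by 2 and by a scale factor read from the lowest values (0.9936 control, 1.007 iFIRKO). Exact Clopper-Pearson intervals at 95% were computed with scipy 1.17.1. No fold was given at 3 pairs or fewer. As low values included fractions of a read, pairs were rounded to whole numbers for the Clopper-Pearson intervals, and no other count model was used. The script was tested on simulated data.

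A gene counted as measured if its CPM reached 1 in at least 1 library, with a pseudocount of 4.18 reads (CPM 0.1) and a threshold of 1.5-fold. Positions, exon lengths and transcripts came from GENCODE M21 on GRCm38, which held 49684 of 53241 symbols (93.3%). Shared windows were counted at 50 and 100 bases. A planned comparison of proteins was not made, and coding sequences, chosen after the files were seen, took its place.

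The genes and lists were chosen with earlier results of these data known. In each list up to 3 genes by level and up to 3 by size of fold were named, besides every other Cyp4 gene measured, the 3 nearest folds and *Insr*. *Ppara*, *Stat5b*, *Acot3*, *Cyp7b1*, *Selenbp2*, the chromosomal neighbours and the marker genes were named after their values were seen. So were *Abcd2*, *Mup1*, *Mup7* and *Mup21*, and *Cyp4f37* and *Cyp4f39*, which lay below the minimum. Some genes that the rule names are not reported here. Alternatives changed the pseudocount, minimum, scaling, fold and length.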

Additional observations from a re-analysis of the deposited data

How the results depend on the processing

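Of 112 fold values of the Cyp4 genes and their sums under other pseudocounts, minimums and scalings, 0 changed direction and 111 moved by less than their counting interval. The exception was *Cyp4a12b*, at 2.51 with a pseudocount worth a CPM of 1 (41.8 reads). The minimum decides only which genes count as measured, so it could not move a fold, and those values were fixed in advance. The scalings shifted the median of all measured genes by only -0.005, 0.003 and -0.012, so they could move folds little. The 3 higher and 0 lower genes stood under each of these settings and at a fold of 2, and with each paralog sum as 1 gene the count was 2. With the larger pseudocount the epoxygenase list had 1 higher gene, the leukotriene list 0 higher and 1 lower, and the female-biased list 3 higher and 6 lower. With no minimum, the median of the leukotriene list turned to 0.09, the female-biased list had 5 higher genes and a median of -0.06, the male-biased list had 9 higher genes, and the other Cyp4 genes had 1 higher and 2 lower. With the longest transcript as length, reads per kilobase (control, then iFIRKO) were 9787 and 21440 for *Cyp4a14*, 276 and 222 for *Cyp4b1*, 1154 and 948 for *Cyp4f13*, and 4986 and 3680 for *Cyp4f14*, because those transcripts are shorter than the union of exons. No paired analysis was possible because there was only 1 library a group, and for the same reason none could be left out. Depth limits *Cyp4a12b* in the control, *Cyp4f18* and *Hao2*, whose values rest on few read pairs.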
